A study of Homo sapiens with 6 samples.

Results

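The 42 genes described here are endothelial identity genes: transcription factors, receptors and ligands, junction and adhesion molecules, and other surface, secreted and signalling products by which the cells that line blood and lymph vessels are usually recognised. They were taken by name from a table of 58051 Ensembl genes, and each of the 42 names matched 1 identifier. The list holds 10 transcription factors, 10 receptors, receptor partners and ligands, 11 junction and adhesion genes, and 11 other genes. The theme was chosen by measured FPKM levels, because CDH5 and TIE1 had been found abundant in an earlier reading of these libraries. The levels of the members are therefore a description and carry no test. The rule did not use the difference between the groups, but earlier results of that comparison were known when the genes were listed.

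The study sequenced total RNA in 6 libraries from cells labelled as NTera-2 (NT2), an embryonal carcinoma line derived from a testicular tumour. By their titles, 3 libraries came from cells that received mimics of piR-36249 and 3 from cells with a scramble control. The piRNAs are small RNAs that act above all in the germ line, and a mimic is a synthetic copy of one. The treatment field speaks of overexpressed mimic or scramble, whereas a knockdown of piR-36249 is named in the genotype field and in the series design. Groups follow the titles, and every difference below is mimic minus scramble. The labels used here give no dose or time and do not say whether replicates were cultured separately, so the p-values reflect the spread between these libraries alone, which may be technical. The libraries held 47.99 to 62.7 M reads as recovered from the FPKM steps, and 11138 to 11211 genes per library exceeded 1 FPKM (fragments per kilobase of gene, scaled to sequencing depth by the authors). In all 6 libraries the most frequent low value was 2 recovered reads. A recovered read may thus be less than 1 fragment, which was not tested.

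Endothelial identity is known to rest on a small set of transcription factors. ETS proteins such as ERG, FLI1 and ETS1 bind a GGAA core in promoters and enhancers, SOX proteins of the F group (SOX7, SOX17 and SOX18) act in arterial and lymphatic fate, and GATA2, TAL1 and LMO2 form a complex shared with blood progenitors. These factors act on genes of the endothelial surface: the VEGF receptors FLT1, KDR and FLT4, the angiopoietin receptor TEK with its partner TIE1, and the junction proteins CDH5 (VE-cadherin), PECAM1 and CLDN5. In culture, single endothelial genes are known to be lost while others persist.

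The members fell into 2 classes in these libraries, with no gene between them. Of the 42 genes, 31 had at least 1 FPKM in every library, and 11 had a mean under 0.5 FPKM over the 6 libraries. The lowest value of a gene of the first class was 1.17 FPKM (SOX17), and the highest value of one of the second class was 0.525 FPKM (VWF). The 31 present genes included 9 of 10 transcription factors, 6 of 10 receptors and ligands, 7 of 11 junction and adhesion genes and 9 of 11 others. EGFL7, a secreted angiogenic factor, was the most abundant at 281 ± 38.9 FPKM (SD, n = 6 libraries), rank 104 of all genes. It was followed by the adhesion molecule ESAM at 141 ± 6.71, CDH5 at 106 ± 20.04, TIE1 at 97.9 ± 6.57 and the adhesion molecule MCAM at 85.8 ± 5.12 FPKM. The ranks of these 4 genes among all genes were 248, 365, 405 and 474. All 31 present genes entered the test with at least 1 FPKM in both groups, so none entered through 1 group alone.

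**Figure D1:**
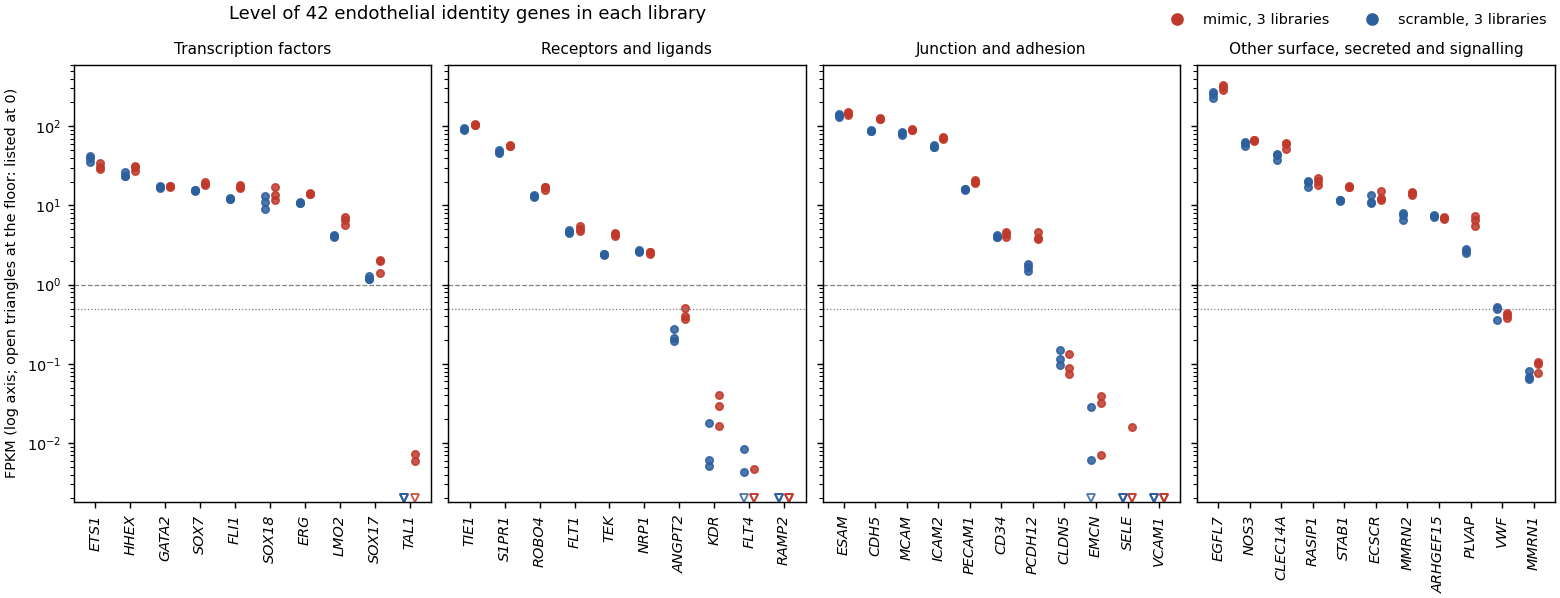
FPKM of the 42 endothelial identity genes in each library on a log axis, in 4 panels by role, with mimic libraries in red and scramble libraries in blue; open triangles at the floor mark values listed at 0. The dashed line is 1 FPKM and the dotted line 0.5 FPKM; 31 genes lie above the former in every library and 11 have means under the latter.

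The 11 genes of the second class include several by which endothelial cells are commonly defined. VWF, the clotting factor stored in endothelial granules, measured 0.4201, 0.434 and 0.385 FPKM in mimic replicates 1 to 3 and 0.486, 0.525 and 0.354 in scramble replicates 1 to 3. Because its exons are long (10391 bases), these low values rest on 1494 recovered reads in all. KDR, the main signalling receptor for VEGFA, measured 0.0163, 0.0296 and 0.03995 FPKM with mimic and 0.00509, 0.00605 and 0.0179 with scramble, which corresponds to 39 reads over the 6 libraries. FLT4, the receptor of lymphatic growth factors, was at 0, 0 and 0.00471 FPKM with mimic and 0, 0.00428 and 0.00844 with scramble. Values this low are worth a few reads. CLDN5, a tight junction protein of brain endothelium, measured 0.0895, 0.0755 and 0.134 FPKM with mimic and 0.149, 0.116 and 0.0981 with scramble. EMCN, a sialomucin of capillaries and veins, stood at 0.03903, 0.00706 and 0.0318 FPKM with mimic and 0.00608, 0 and 0.0285 with scramble. MMRN1, a granule and matrix protein, stood at 0.105, 0.101 and 0.0756 FPKM with mimic and 0.0636, 0.0825 and 0.0678 with scramble. KDR, FLT4, CLDN5, EMCN and MMRN1 thus stayed under 0.5 FPKM in every library. SELE, an endothelial adhesion molecule to which leukocytes bind, had reads in 1 library only (0.0161 FPKM in mimic replicate 2). VCAM1, induced by inflammation as SELE is, was listed at 0 in all 6 libraries. RAMP2, the partner of the adrenomedullin receptor, was likewise listed at 0 throughout. TAL1 was at 0.00598, 0 and 0.00731 FPKM with mimic and at 0 in all 3 scramble libraries. ANGPT2, an antagonist ligand of TEK, stood highest of the class after VWF and is described with the receptors. The groups overlapped in 10 of these 11 genes, ANGPT2 being the exception, and none was tested. VCAM1 and RAMP2, at 0 throughout, could only overlap, and SELE, TAL1 and FLT4 rest on 4 to 8 reads. Overlap in these genes says nothing about a difference.

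Genes of the labelled cell type were read in the same way. Of 20 genes of embryonal carcinoma and pluripotent cells, 18 averaged under 0.5 FPKM, and all 6 libraries listed 10 of them at 0, including NANOG, SOX2, SALL4, TDGF1 and L1TD1. The 4 highest of that list were DNMT3B (between 2.82 and 5.24 FPKM), TERF1 (up to 1.898), DPPA4 (up to 0.268) and POU5F1 (up to 0.0706). The defining markers of the labelled cell type were therefore absent or near 0 in mimic and scramble libraries alike, which concerns every comparison below. In bulk RNA, fewer cells of a type and less RNA per cell cannot be told apart.

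Lists for other cell types were mostly near 0 too. Of 14 blood genes none was present in all libraries, of 10 neural genes none, of 10 fibroblast genes 1 (THY1), of 11 epithelial genes 2 (KRT8 and KRT18, between 129.8 and 181 FPKM) and of 12 mural genes 2 (MCAM, which is also a member here, and ACTA2). By contrast, 22 of 40 further endothelial genes outside the list were present in every library. The plot of mean levels by marker list shows this split: members and further endothelial genes reach above 100 FPKM, while the other lists lie below 10 FPKM apart from MCAM, KRT8 and KRT18.

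**Figure D2:**
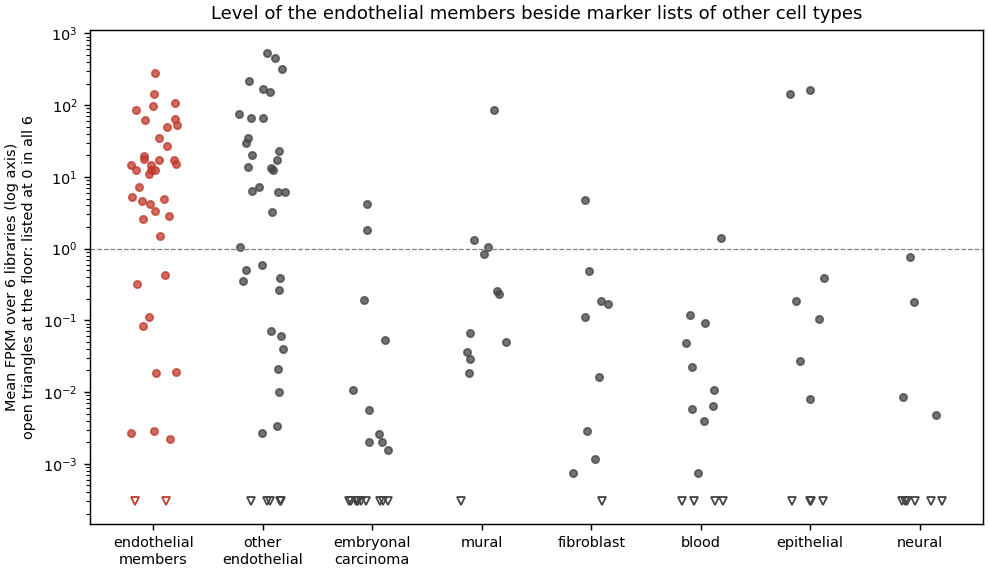
Mean FPKM over the 6 libraries (log axis) of each gene in the endothelial list (red), a list of 40 further endothelial genes and 6 lists for other cell types; open triangles mark genes listed at 0 in all 6 libraries. Of the 42 members 31 were present, against 2 of 20 genes of embryonal carcinoma cells and 0 of 14 blood genes.

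RefSeq promoter windows (GRCh38.p14) were given for 25 of the 42 members, 19 of them present here and 6 not, and are shown because members of both classes can then be set side by side for the core that ETS factors bind. The 6 below are the last 150 bases before the RefSeq start, 5′ to 3′ on the gene's strand. They were picked from windows with little overlap with annotated exons, at most 8 bases each. For EGFL7 the window of the first of 2 starts is shown. Capitals mark matches to AGGAAG or CGGAAG on either strand, so that CTTCCT and CTTCCG are the same matches read from the other strand. EGFL7 and TIE1 were abundant, and PLVAP and STAB1 were among the members that rose most with mimic. KDR and VCAM1 were near 0 or at 0. Other windows within the same overlap limit are not shown. Of these, MCAM and GATA2 were present without a match, and ECSCR and HHEX were present with 1. The 6 shown are therefore not a sample of the 2 classes.
EGFL7, chr9:136658706-136658855, plus strand: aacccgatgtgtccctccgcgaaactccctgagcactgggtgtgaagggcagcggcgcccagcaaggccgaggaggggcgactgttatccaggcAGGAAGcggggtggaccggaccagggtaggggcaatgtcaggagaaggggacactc
TIE1, chr1:43300832-43300981, plus strand: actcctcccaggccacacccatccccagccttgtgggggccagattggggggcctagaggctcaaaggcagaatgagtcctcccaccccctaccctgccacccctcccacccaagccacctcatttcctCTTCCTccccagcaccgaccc
PLVAP, chr19:17377343-17377492, minus strand: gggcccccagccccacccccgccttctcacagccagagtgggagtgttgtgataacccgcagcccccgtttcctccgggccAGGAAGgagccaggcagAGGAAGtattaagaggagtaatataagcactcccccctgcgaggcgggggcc
STAB1, chr3:52495188-52495337, plus strand: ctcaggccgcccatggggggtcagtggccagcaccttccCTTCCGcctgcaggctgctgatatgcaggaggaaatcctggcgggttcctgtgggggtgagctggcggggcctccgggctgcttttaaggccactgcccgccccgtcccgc
KDR, chr4:55125596-55125745, minus strand: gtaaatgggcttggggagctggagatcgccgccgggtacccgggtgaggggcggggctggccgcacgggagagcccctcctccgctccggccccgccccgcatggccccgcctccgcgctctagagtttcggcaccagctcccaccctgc
VCAM1, chr1:100719592-100719741, plus strand: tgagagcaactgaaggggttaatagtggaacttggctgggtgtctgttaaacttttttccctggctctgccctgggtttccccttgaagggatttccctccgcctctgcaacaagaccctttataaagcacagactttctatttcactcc
In the full window of 250 bases before the start, 17 of the 25 members held at least 1 match, 13 of the 19 present ones and 4 of the 6 others, beside 45.5% of all 27305 genes with a window. The GATA cores AGATAA or TGATAA stood in 9 of the 25 members and in 17.5% of all genes, and the SOX core ACAAAG in 6 of the 25 and in 16.3%. Both strands were searched, and genes with several starts were counted once. Both classes had genes with and without a match: EMCN, SELE, MMRN1 and TAL1 held one while near 0, and CLEC14A, PCDH12 and TEK held none although present. A match is a string of letters in a window and shows no binding.

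With mimic, most of the present members were higher. Of the 31 tested, 20 rose, 1 fell and the other 10 missed the threshold (limma on log2(FPKM + 1), Benjamini-Hochberg adjusted p under 0.05 over all 12912 genes tested). Over all genes tested, 35.5% passed by the same rule: 18.7% rose and 16.8% fell. The median log2 fold change of the 31 members was 0.29, beside 0.0025 over all genes. In 21 members every mimic library lay above every scramble library, and in 2 every mimic library lay below, beside 26.0% and 23.2% of all genes tested. The sum of the 42 members was 1255 to 1350.2 FPKM with mimic and 1064 to 1118 with scramble. Under the quantile, TPM and median-of-ratios scalings no member changed direction.

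**Figure D3:**
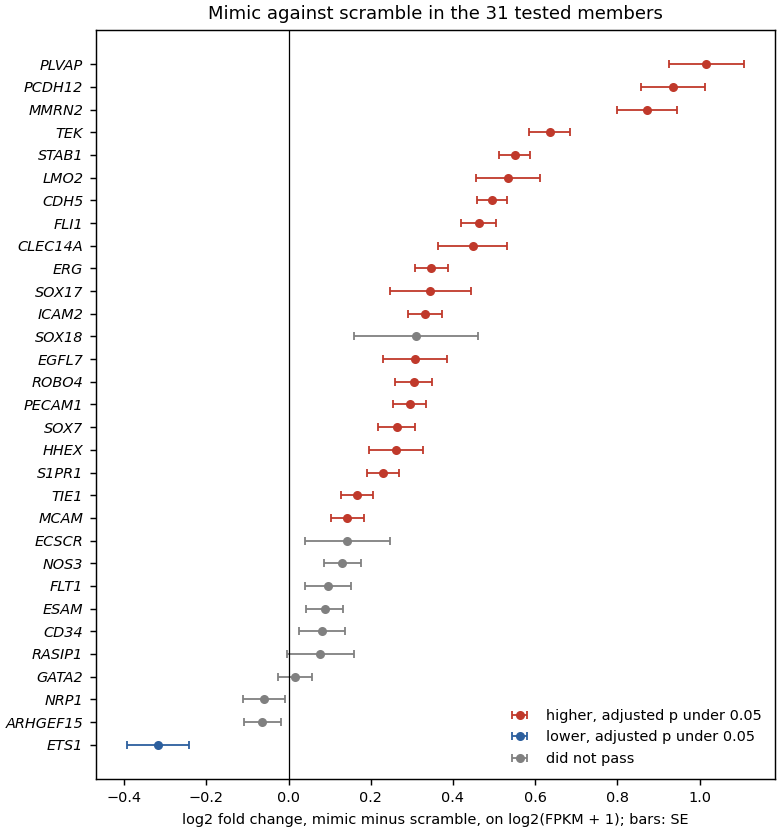
Log2 fold change (mimic minus scramble, on log2(FPKM + 1)) of the 31 tested members in order of size, with SE bars; red and blue mark genes with an adjusted p under 0.05 (limma) and grey those that did not pass. PLVAP (1.02), PCDH12 (0.94) and MMRN2 (0.87) lead, and ETS1 (-0.32) is the 1 member that fell.

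Among the transcription factors, 6 of 9 tested rose (66.7%) and 1 fell (11.1%), beside 18.7% and 16.8% of all genes tested. Of the 3 ETS factors, ERG and FLI1 rose and ETS1 fell. ERG (ENSG00000157554, chromosome 21, 38380027 to 38661780, minus strand), a factor that maintains junction genes, measured 13.99, 14.3 and 13.8 FPKM with mimic and 10.7, 10.6 and 11.2 with scramble, with no overlap (log2 fold change 0.35, SE 0.04, adjusted p = 5.6e-04, limma). FLI1 (ENSG00000151702, chromosome 11, 128686535 to 128813267, plus strand), its close relative, measured 18.04, 16.7 and 16.9 FPKM with mimic and 12.3, 12.1 and 12.2 with scramble. All 3 mimic libraries lay above all 3 scramble libraries, and its rise was 0.46 (SE 0.042, adjusted p = 2.0e-04, limma). SENCR, an antisense gene at 12.9 FPKM, shares 1.98% of the exon bases of FLI1, and without strand its reads there cannot be told apart. ETS1 (ENSG00000134954, chromosome 11, 128458761 to 128587558, minus strand), which acts in sprouting and in many other cells, measured 28.9, 34.3 and 30.7 FPKM with mimic and 40.3, 41.7 and 35.8 with scramble. Its groups did not overlap and it fell by 0.32 on the log2 scale (SE 0.076, adjusted p = 0.015, limma). That call was lost without mimic replicate 3 (adjusted p = 0.0511) or scramble replicate 1 (adjusted p = 0.0503), both just past the threshold in limma, and with no filter on low values (adjusted p = 0.067).

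Of the 3 SOX factors, SOX7 and SOX17 rose. SOX7 measured 18.4, 18.00 and 19.7 FPKM with mimic and 15.2, 15.5 and 15.5 with scramble (log2 fold change 0.26, adjusted p = 0.0031, limma). The scramble libraries were nearly equal and all lay below the mimic libraries. An entry named PINX1 (ENSG00000258724) on the same strand shares 39.4% of the exon bases of SOX7. That entry was listed at 0, so the assignment of reads between it and SOX7 is uncertain. The value of 0 concerns that entry alone. SOX17, an arterial factor near the lower end of the present genes, measured 2.08, 1.41 and 2.002 FPKM with mimic and 1.17, 1.19 and 1.28 with scramble, a rise of 0.34 (adjusted p = 0.029, limma). Leaving out mimic replicate 1 or 3, or scramble replicate 1 or 2, ended its call (adjusted p from 0.072 to 0.095), as did testing with no filter (0.116, limma), and its log2 fold change was 0.57 with a pseudocount of 0.01. SOX18, mutated in a disorder of lymph vessels and hair, measured 17.01, 11.6 and 13.4 FPKM with mimic and 11.1, 9.12 and 12.99 with scramble. Mimic replicate 1 was high and the groups overlapped, and its difference of 0.31 (SE 0.15) did not pass (adjusted p = 0.147, limma).

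Of the blood and vessel factors, LMO2, a bridging protein of the TAL1 and GATA2 complex, rose by 0.53 (SE 0.077, adjusted p = 0.0016, limma), from 4.27, 4.03 and 4.16 FPKM with scramble to 7.19, 5.65 and 6.62 with mimic. Every mimic value stood above every scramble value. GATA2 measured 17.4 ± 0.331 FPKM with mimic and 17.2 ± 0.577 with scramble (SD, n = 3), a difference of 0.02 on the log2 scale (SE 0.041). TAL1, the third partner, was near 0 as given above. HHEX, a homeobox factor of early vessels and blood, measured 31.5, 27.02 and 30.6 FPKM with mimic and 23.8, 23.8 and 26.2 with scramble, a rise of 0.26 (adjusted p = 0.018, limma). The gap between its groups was small, and leaving out mimic replicate 1 or 3, or scramble replicate 1 or 2, ended the call (adjusted p from 0.057 to 0.065, limma), as did testing with no filter (0.071).

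Among receptors and ligands, 4 of 6 tested members rose (66.7%) and none fell, beside 18.7% and 16.8% of all genes tested. The angiopoietin receptor TEK (ENSG00000120156, chromosome 9, 27109141 to 27230175, plus strand), also called TIE2, measured 4.16, 4.48 and 4.35 FPKM with mimic and 2.45, 2.46 and 2.38 with scramble. It was 1.78 times higher with mimic, the largest ratio among the 6 tested genes of this group (log2 fold change 0.64, SE 0.049, adjusted p = 9.7e-05, limma), and its libraries did not overlap. TIE1 (ENSG00000066056, chromosome 1, 43300993 to 43323108, plus strand), which modulates TEK and has no well established ligand of its own, stood far above it per length, at 103, 102 and 106 FPKM with mimic and 93.3, 94.3 and 89.03 with scramble. Its rise was small at 0.17 (SE 0.038, adjusted p = 0.012, limma), and it missed the threshold without mimic replicate 3 (adjusted p = 0.0505). The TEK ligand ANGPT2, under the filter on low values, measured 0.501, 0.399 and 0.369 FPKM with mimic and 0.275, 0.196 and 0.2096 with scramble. All mimic libraries were higher, on 728 reads in all; with no filter on low values its adjusted p was 0.067 (limma).

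Of the VEGF receptors and their co-receptor, FLT1 and NRP1 were tested and did not pass, and KDR and FLT4 were under the filter. FLT1, a high-affinity VEGF receptor that also acts as a decoy, measured 5.01, 5.44 and 4.76 FPKM with mimic and 4.65, 4.86 and 4.52 with scramble. The groups overlapped, and its difference was 0.10 (SE 0.057, adjusted p = 0.226, limma). The co-receptor NRP1 measured 2.54 ± 0.0828 FPKM with mimic and 2.69 ± 0.0724 with scramble (SD, n = 3). Its mimic libraries all lay below its scramble libraries by a narrow margin, and its difference of -0.06 (SE 0.051) did not pass (adjusted p = 0.396, limma). KDR and FLT4 were near 0, so FLT1 was the 1 VEGF receptor of the 3 that was present.

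Both remaining surface receptors rose. S1PR1, the receptor for the blood lipid sphingosine 1-phosphate that stabilises junctions, measured 56.4, 55.7 and 57.4 FPKM with mimic and 50.01, 46.4 and 47.8 with scramble (log2 fold change 0.23, SE 0.04, adjusted p = 0.0036, limma). ROBO4, which restrains vessel leak, measured 16.9, 15.8 and 17.2 FPKM with mimic and 13.3, 12.97 and 13.6 with scramble (log2 fold change 0.30, SE 0.045, adjusted p = 0.0017, limma). Neither gene had overlapping groups.

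Among junction and adhesion genes, 5 of 7 tested members rose (71.4%) and none fell, beside 18.7% and 16.8% of all genes tested. CDH5 (ENSG00000179776, chromosome 16, 66366622 to 66404786, plus strand), the cadherin of the endothelial adherens junction, measured 123, 123 and 127 FPKM with mimic and 89.7, 87.8 and 86.4 with scramble. Mimic libraries were 1.41 times higher on average, and the spread within each group was small beside the gap (log2 fold change 0.49, SE 0.036, adjusted p = 7.1e-05, limma). PCDH12 (ENSG00000113555, chromosome 5, 141943585 to 141969741, minus strand), a protocadherin of endothelial contacts, had the highest ratio of all tested members, 2.47. It measured 3.77, 3.89 and 4.56 FPKM with mimic and 1.800, 1.48 and 1.67 with scramble (log2 fold change 0.94, SE 0.078, adjusted p = 1.3e-04, limma). In the authors' deposited table its log2 fold change was 1.29. PECAM1 (CD31), the platelet and endothelial adhesion molecule, measured 20.7, 19.4 and 19.9 FPKM with mimic and 16.3, 15.8 and 16.2 with scramble (log2 fold change 0.29, SE 0.04, adjusted p = 0.0012, limma). Its groups were well apart.

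ICAM2, a constitutive ligand of leukocyte integrins, measured 71.04, 68.9 and 72.7 FPKM with mimic and 55.5, 54.4 and 58.5 with scramble, a rise of 0.33 (SE 0.042, adjusted p = 8.5e-04, limma). PRR29 on the opposite strand shares 26.8% of the exon bases of ICAM2 and stood at 13.2 FPKM with mimic and 13.5 with scramble, so reads in the shared part are uncertain. MCAM, an adhesion molecule of vessels and of mural cells, measured 88.5, 89.7 and 91.96 FPKM with mimic and 82.3, 83.7 and 78.5 with scramble, a rise of 0.14 (adjusted p = 0.025, limma). This was the smallest rise that passed, and leaving out mimic replicate 2 or 3, or scramble replicate 1 or 3, ended the call (adjusted p from 0.055 to 0.089, limma), as did testing with no filter (0.053). The gene CBL on the opposite strand shares 6.86% of the exon bases of MCAM and stood at 6.47 FPKM with mimic and 13.3 with scramble. ESAM (145 ± 5.77 FPKM with mimic, 137 ± 4.72 with scramble, SD, n = 3) and CD34, a sialomucin of capillaries and progenitors (4.37 ± 0.304 and 4.07 ± 0.0936), did not pass. Their differences were 0.09 (SE 0.045) and 0.08 (SE 0.056) on the log2 scale, and ESAM passed on the TPM scale (adjusted p = 0.049, limma).

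Of the other surface, secreted and signalling genes, 5 of 9 tested rose (55.6%) and none fell, beside 18.7% and 16.8% of all genes tested. PLVAP (ENSG00000130300, chromosome 19, 17351448 to 17377350, minus strand), the protein of the diaphragms of fenestrae and caveolae, had the largest log2 fold change of all members. It measured 7.398, 5.52 and 6.63 FPKM with mimic and 2.54, 2.69 and 2.85 with scramble (log2 fold change 1.02, SE 0.091, adjusted p = 1.9e-04, limma). Its mimic libraries spread more than its scramble libraries, and the lowest of them was still well above the highest scramble library. The authors' deposited table gave PLVAP a log2 fold change of 1.27; PLVAP and PCDH12 were the 2 members among its 401 genes, a table that holds no absolute log2 fold change under 1. In all 401 genes of the authors' deposited table the log2 fold change had the sign of mimic minus scramble in FPKM and the test statistic had the opposite sign. MMRN2 (ENSG00000173269, chromosome 10, 86935540 to 86969481, minus strand), an extracellular matrix protein of vessels that binds CLEC14A, measured 14.9, 13.5 and 14.4 FPKM with mimic and 7.96, 6.49 and 7.63 with scramble, 1.94 times higher (log2 fold change 0.87, SE 0.073, adjusted p = 1.4e-04, limma). CLEC14A, a lectin-like receptor of sprouting vessels, measured 61.7, 51.9 and 59.3 FPKM with mimic and 44.01, 37.5 and 44.5 with scramble (log2 fold change 0.45, SE 0.084, adjusted p = 0.0051, limma). Both partners thus rose with no overlap between groups.

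STAB1 (ENSG00000010327, chromosome 3, 52495338 to 52524495, plus strand), a scavenger receptor of sinusoids and macrophages, measured 17.2, 17.2 and 17.6 FPKM with mimic and 11.6, 11.3 and 11.7 with scramble. Its replicates were almost equal within groups, and it had the smallest adjusted p of all members (log2 fold change 0.55, SE 0.037, adjusted p = 5.1e-05, limma). EGFL7 (ENSG00000172889, chromosome 9, 136658856 to 136672678, plus strand) measured 336, 283 and 316 FPKM with mimic and 254, 231 and 269.9 with scramble, a rise of 0.31 (SE 0.077, adjusted p = 0.018, limma). The lowest mimic library stood just above the highest scramble library, and leaving out mimic replicate 1 or 3, or scramble replicate 2, ended the call (adjusted p from 0.053 to 0.060, limma), as did testing with no filter (0.085).
An intron of EGFL7 holds the hairpin of miR-126, a microRNA known for its abundance in endothelium, at chr9:136670602-136670686 (GRCh38). Its mature sequences from RefSeq are shown to place the host gene's readout, with the seed (bases 2 to 8) in capitals. The microRNA itself was not analysed here.
hsa-miR-126-3p: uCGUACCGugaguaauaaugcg
hsa-miR-126-5p: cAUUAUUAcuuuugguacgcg

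The 4 others of this group did not pass. NOS3, the endothelial nitric oxide synthase, measured 66.7, 65.3 and 66.2 FPKM with mimic and 62.7, 61.5 and 56.8 with scramble. Every mimic library was higher, but the difference of 0.13 (SE 0.045) just missed the threshold (adjusted p = 0.055, limma); it passed with a filter of 1 FPKM (0.049) or 5 FPKM (0.041) and with voom on recovered reads (0.037). The opposite-strand gene ATG9B, at 1.07 FPKM, shares 13.2% of the exon bases of NOS3. RASIP1, a regulator of vessel lumen formation, and ARHGEF15, an endothelial guanine nucleotide exchange factor, differed by 0.08 (SE 0.082) and -0.06 (SE 0.045). ECSCR, a surface regulator of endothelial migration, differed by 0.14 (SE 0.103), with 13.1 ± 1.72 FPKM with mimic and 11.8 ± 1.43 with scramble (SD, n = 3). The groups of these last 3 genes overlapped. A coding gene on the same strand shares 72.5% of the exon bases of ECSCR and was listed at 0, so the assignment of reads between them is uncertain.

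Further genes of the same biology were counted in 4 lists. Over all genes tested, 18.7% rose and 16.8% fell. Of 25 tested genes among the 40 further endothelial genes, 13 rose (52%) and 5 fell (20%). The 4 highest were the TGF-beta co-receptor ENG, which rose from 435 ± 24.9 to 645 ± 25.7 FPKM (log2 fold change 0.57, adjusted p = 2.8e-04, limma), the caveolar protein CAVIN1 (0.06, adjusted p = 0.26), TM4SF1, a membrane protein of endothelial and tumour cells that fell (-0.44, adjusted p = 2.2e-04), and the peptide ligand APLN, which also fell (-0.11, adjusted p = 0.046). The call of APLN was lost under 11 of 18 alternatives, each single library left out among them (adjusted p from 0.056 to 0.126, limma). The other 3 that fell were chosen for naming by their values: MYCT1, the tip-cell proteoglycan ESM1 and the coagulation inhibitor TFPI. MYCT1 lost its call without mimic replicate 3 or scramble replicate 1, and ESM1 without scramble replicate 1 or with no filter (adjusted p from 0.050 to 0.067, limma). The further endothelial genes therefore did not all rise, and the share of them that fell was near that of all genes. The median log2 fold change of the 25 genes was 0.22. CCM2L, 1 of the 13 that rose, passed the filter only through its mimic libraries. Its means were 0.946 FPKM with mimic and 0.221 with scramble. It was named after its values were seen.

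Among 14 tested catenins and other partners of the endothelial contact, 8 rose (57.1%) and 1 fell (7.14%). Of all genes tested, 18.7% rose and 16.8% fell. The 4 highest members of this list were catenins of the cadherin complex. JUP (plakoglobin) rose by 0.95 (from 29.98 ± 2.07 to 58.9 ± 4.205 FPKM, adjusted p = 5.9e-05, limma), CTNND1 by 0.26 (adjusted p = 0.018, lost without mimic replicate 2 or 3 and with no filter, at 0.054 to 0.072) and CTNNB1 by 0.25 (adjusted p = 0.0024), whereas CTNNA1 did not pass (0.12, adjusted p = 0.075). The gene that fell, F11R, a tight junction adhesion molecule, was named after its value was seen, and its call was lost whichever single library was left out. Of 14 tested VEGF, angiopoietin and related ligands and co-receptors, 5 rose (35.7%) and 3 fell (21.4%). The highest were ANGPTL4 (0.68), the VEGF relative PGF (0.50) and the semaphorin receptor PLXND1 (0.80), which rose (adjusted p = 3.7e-05, 0.0012 and 1.7e-05, limma), and VEGFC, the ligand of FLT4, which fell (-0.13, adjusted p = 0.038, limma). The call of VEGFC was lost under 9 of 18 alternatives (adjusted p from 0.058 to 0.105), 5 of the 6 with a library left out among them. The others past the threshold, named after their values were seen, were ANGPTL2 and SEMA3F, which rose, and ANGPT4 and UNC5B, which fell; UNC5B stands in both this list and the next, and lost its call under 8 of 17 alternatives (adjusted p from 0.054 to 0.152, limma), all single libraries left out except scramble replicate 3 among them. Of 10 tested arterial and venous genes, 3 rose (30%: EPHB4, JAG2 and HEY2) and 2 fell (20%: DLL4 and UNC5B). Of these 5 genes, all but EPHB4 were named after their values were seen. The venous receptor EPHB4 rose by 0.87 (from 22.3 ± 0.795 to 41.7 ± 1.79 FPKM, adjusted p = 2.1e-05, limma), while the other 3 highest, NOTCH1 (-0.10), the venous factor NR2F2 (-0.04) and JAG1 (-0.09), did not pass (adjusted p = 0.35, 0.379 and 0.394, limma). Without scramble replicate 3, NOTCH1 passed as lower (0.034). The arterial ligand EFNB2 and the arterial connexin GJA4 were at or near 0.

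**Figure D4:**
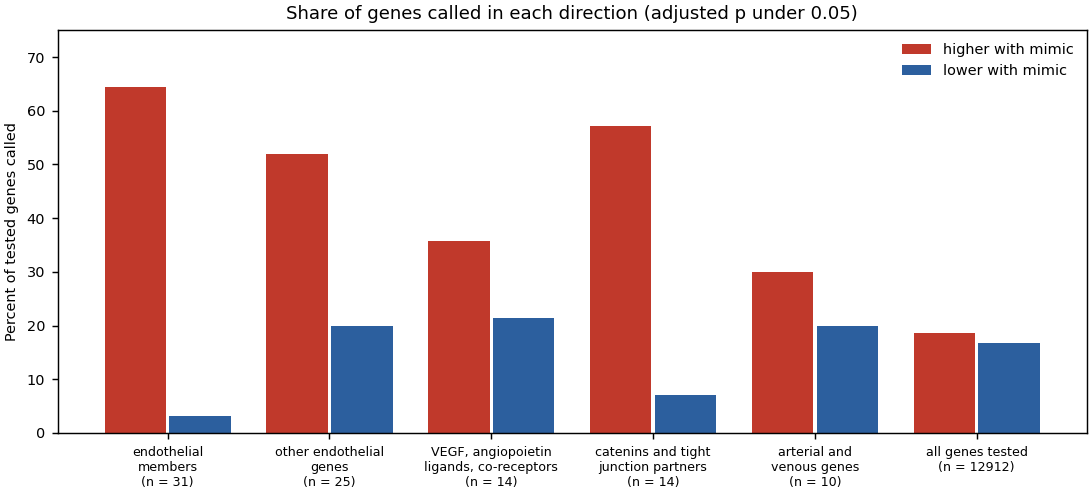
Percent of tested genes called higher (red) or lower (blue) with mimic at an adjusted p under 0.05 (limma), for the members, 4 related lists and all genes tested. Of the 31 members 64.5% rose and 3.23% fell, beside 18.7% and 16.8% of all 12912 genes.

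Markers of other cell types were read beside this rise. For 10 fibroblast genes, of which 1 was present, the summed level was 6.35 to 6.95 FPKM with mimic and 4.65 to 4.995 with scramble, with DPT listed at 0 and COL1A2, PDGFRA and POSTN near 0. THY1 rose (0.31, adjusted p = 0.0041, limma), and COL1A1, FAP and LUM, all under the filter, were 2.52, 2.11 and 1.62 times as high with mimic, with no overlap. The sum of 12 mural genes was 92.7 to 95.8 FPKM with mimic and 82.4 to 87.5 with scramble, and without MCAM it was 3.84 to 4.16 FPKM with mimic and 3.71 to 3.95 with scramble, with KCNJ8 at 0. Single mural genes moved apart: PDGFRB stood at 0.332 ± 0.0926 FPKM with mimic and 0.139 ± 0.0268 with scramble, NOTCH3 at 0.0106 ± 0.0121 and 0.0479 ± 0.0115, and TAGLN fell (-0.20, adjusted p = 0.036, limma, a call lost with each single library left out). For 14 blood genes, none of them present, it was 1.01 to 1.12 FPKM with mimic and 2.26 to 2.54 with scramble, mostly CD33, which fell (-0.88, adjusted p = 7.4e-05, limma), with CD3E and PF4 among those at 0. The 11 epithelial genes summed to 303 to 319 FPKM with mimic and 294 to 324 with scramble, nearly all KRT8 and KRT18, with CDH1, KRT5, ESRP1 and GRHL2 at 0. KRT8 rose (0.20, adjusted p = 0.011, limma), and KRT18 was lower in every mimic library without passing (-0.12, adjusted p = 0.099). The 10 neural genes summed to 0.955 to 1.05 FPKM with mimic and 0.7903 to 1.003 with scramble, with SOX1, NEUROD1, DCX, NCAM1 and STMN2 among those at 0. GFAP, under the filter, was 2.77 times as high with mimic, with no overlap. The authors' deposited table gave it a log2 fold change of 1.47. TUBB3, the 1 neural gene tested, did not pass (-0.06, adjusted p = 0.565, limma). For 20 genes of embryonal carcinoma cells the sum was 7.01 to 7.23 FPKM with mimic and 4.998 to 5.53 with scramble, most of it DNMT3B, which rose (0.58, adjusted p = 3.7e-04, limma). The fibroblast and embryonal carcinoma sums were higher and the blood sum lower with mimic, all at levels under 10 FPKM. The embryonal carcinoma direction rests on DNMT3B and the blood direction on CD33, and some other genes of those lists went the other way. TERF1 was lower in every mimic library without passing (-0.07, adjusted p = 0.309, limma). CD14 and LYZ, under the filter, were 5.04 and 1.81 times as high with mimic, with no overlap, on 29 and 68 reads in all. The part of these sums and of the single markers named here in the rise of the members was not tested.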

How the data were processed

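RNA-seq values came from 6 libraries, 3 per group. The deposited table holds FPKM per Ensembl gene, per the file headers. The submitters' processing notes name Trimmomatic 0.39, HISAT2 2.1.0, featureCounts 2.0.1, DESeq2 1.26.0 and GRCh38. How FPKM was calculated, which annotation and counting settings were used, and whether counting was stranded is not given in the sources used here. A second deposited table lists 401 genes with the mean of normalized signal per gene, log2 fold change and its standard error, a test score, and p-value and adjusted p-value, all computed by the authors. No column belonged to a sample outside the series (0 columns).

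The members and all gene lists were chosen with earlier results of these data known, the mimic contrast among them. FPKM were transformed to log2(FPKM + 1) and 12912 genes that averaged 0.5 FPKM or more were kept. Groups were compared in R 4.3.3 by limma 3.58.1, fitted with a trend in the variance, and p-values were adjusted by Benjamini-Hochberg over all genes at 0.05. The script was tested on simulated data. Fold changes understate the change of low genes on this scale. Low FPKM values were close to whole multiples of 1 read in 95.7% to 96.0% of cases (tolerance 0.02, values under 50 reads), which gave the depth: 3 reads on 1 kb were worth 0.0478 to 0.0625 FPKM. Fold changes, SE and adjusted p of every tested member were taken from this fit. Exon overlaps and lengths came from GENCODE 29, which matched 57447 of 58051 identifiers, and promoter and microRNA sequences from RefSeq. All 42 members are accounted for, with values in every library for the present members that were called and for absent defining genes that had reads, and the 4 most abundant genes of each further list are named. Alternatives were other pseudocounts (0.1 and 0.01), filters (1 and 5 FPKM, none), TPM, quantile and median-of-ratios scalings, limma without a trend or robust, voom on recovered reads, a replicate block and each library left out.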

Additional observations from a re-analysis of the deposited data

How the results depend on the processing

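Across 18 alternatives, 524 of 551 log2 fold changes of members kept their direction and their side of the threshold, 23 lost the call, 4 gained it and 0 changed direction; 23 of the 31 members were the same under every alternative that tested them. Of the 31 members tested, 20 rose in the reported fit and 21 on the TPM scale. With 1 library left out, 15 to 19 rose (15 without mimic replicate 3). With no filter 16 of 40 tested members rose, and with a filter of 5 FPKM 17 of 24. The share of all genes that rose was 18.7% in the reported fit and 13.8% to 16.0% with 1 library left out. It was 19.8% on the TPM scale, 5.8% with no filter and 24.6% with a filter of 5 FPKM. The 1 member that fell became 0 with no filter, and 0 to 1 with 1 library left out (0 without mimic replicate 3 or scramble replicate 1). The share of all genes that fell was 16.8% in the reported fit and 12.4% to 14.9% with 1 library left out. It was 14.3% on the TPM scale, 5.22% with no filter and 24.1% with a filter of 5 FPKM. Counts in the further lists moved as follows. Genes that averaged under 5 FPKM were not in the test with that filter, and other causes were not tested. Further endothelial genes that fell went from 5 to 3 with no filter and to between 2 and 4 with 1 library left out. Ligands and co-receptors that fell went from 3 to 1 with a filter of 5 FPKM, with no filter or on the TPM scale, and to between 1 and 2 with 1 library left out. At 5 FPKM, ANGPT4 (mean 0.757 FPKM) and UNC5B (mean 3.36 FPKM) left the test. ANGPT4 kept its call in all 16 alternatives that tested it. Contact partners that rose went from 8 to 5 with no filter and to between 5 and 7 with 1 library left out, and the 1 that fell went to 0 with no filter, on the TPM scale, with quantile normalization, with eBayes without a trend and with any library left out. Arterial and venous genes that fell went from 2 to 0 with a filter of 5 FPKM, to 1 with no filter or on the TPM scale, and to between 1 and 3 with 1 library left out. At 5 FPKM, DLL4 (mean 4.33 FPKM) and UNC5B left the test. DLL4 kept its call in all 17 alternatives that tested it. The median log2 fold change of all genes lay between -0.0046 and 0.024 over the scalings.

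With the replicate number as a block, 20 members rose and 1 fell, beside 18.8% and 16.9% of all genes. Of the arterial and venous genes, 1 fell in place of 2. Whether the numbers pair the libraries cannot be told from 3 libraries per group. Deviations of same-numbered libraries from their group means correlated at -0.062, 0.24 and 0.054. Across different numbers the highest correlation was 0.23, for mimic replicate 1 with scramble replicate 3. All 11 genes that were not tested were left out by the same filter on mean FPKM. Of these, VWF and ANGPT2 had 1494 and 728 reads over the 6 libraries, and MMRN1 and CLDN5 had 150 and 125. KDR, FLT4, EMCN, SELE and TAL1 had 39 reads or fewer over the 6 libraries, so their values rest on few reads.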

Other observations

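Several ligands or receptors were measured in these libraries while their partner was at or near 0. APLN, the apelin peptide, measured 212 ± 3.14 FPKM with mimic and 228 ± 3.27 with scramble (SD, n = 3), while its receptor APLNR was listed at 0 in all 6 libraries. VEGFC measured 19.4 ± 0.742 and 21.3 ± 0.321 FPKM, while its receptor FLT4 reached 0.00844 FPKM at most. VEGFA, the ligand of KDR and FLT1, measured 1.87 ± 0.114 and 2.15 ± 0.0563 FPKM, with KDR at 0.03995 FPKM or less and FLT1 present at 5.07 ± 0.342 and 4.68 ± 0.169 FPKM. In the venous and arterial pair of EPHB4 and EFNB2, the receptor EPHB4 measured 41.7 ± 1.79 and 22.3 ± 0.795 FPKM and the ligand EFNB2 had 2 recovered reads in all. These pairs were chosen after their values were seen.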
